A study of Mus musculus with 6 samples.

Results

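The potassium channel genes on the array were chosen as all probes whose annotated symbol starts with Kcn, a rule that uses no measured value. It found 173 of 45281 probes, for 88 of 19057 named genes. Lung fibroblasts of wild-type mice (wt, p38 +/+) were compared with those of mice carrying a p38 knock-in allele on both chromosomes (ki, p38 ki/ki), 3 mice and 3 Illumina bead arrays per genotype. All mice were 10 weeks old, and all cells grew in DMEM/F12 with 15% FCS and were used at passage 1. The labels state neither which p38 gene carries the allele nor the change it makes, and no sorting step is given. All 4 p38 kinase genes were detected on every array, and Mapk13 and Mapk14 were higher in ki by 0.84 and 0.29 on the log2 scale (adjusted p = 0.00717 and 0.0224).

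Potassium channels let potassium ions pass the membrane through a pore built by the channel subunits themselves, and they set the resting membrane potential. Voltage-gated channels open on depolarisation, and inward rectifiers carry inward current more readily than outward current. Two-pore channels pass a background leak, and calcium-activated channels link the potential to intracellular calcium. Accessory subunits have no pore of their own and change the gating or trafficking of voltage-gated channels. In fibroblasts and macrophages these channels are known for roles in membrane potential, calcium entry and proliferation.

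Few of these genes gave a signal above background. A probe counted as detected at a detection p under 0.05, and a gene was tested when a probe of it was detected on at least 3 of the 6 arrays. Of the 88 genes, 21 (23.9%) were tested, 17 were detected on 1 or 2 arrays, and 50 on none, against 54.6% tested among all named genes. Per array 12.1% to 16.8% of the channel probes were detected, and 38.9% to 40.9% of all probes. The 6 arrays detected 21 to 29 of the 173 probes, and the genotypes overlapped (25, 21 and 25 in wt, 29, 24 and 27 in ki). The mean deposited signal over all probes was 846.7, 735.5 and 712.3 on the wt arrays and 684.4, 519.4 and 694.7 on the ki arrays, so every ki array was dimmer than every wt array before normalisation. Absence of detection shows only that a transcript was not above background with these probes.

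**Figure D1:**
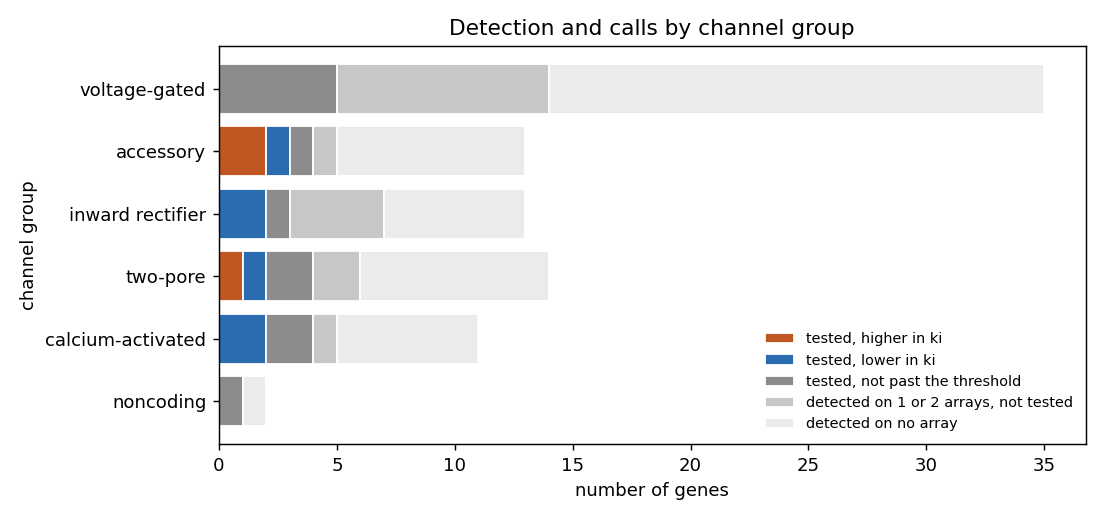
Number of potassium channel genes in each channel group (vertical axis), split along the horizontal axis by detection and by the result of the ki against wt comparison. The voltage-gated group is the longest bar, with 35 genes of which 5 were tested and 0 passed, and the other groups are shorter with at most 4 genes tested each.

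Every level below is a log2 intensity after normalisation. A difference is the ki mean minus the wt mean of 3 mice each, given with the standard error (SE). A gene passed at a Benjamini-Hochberg adjusted p under 0.05 in limma's moderated test over all 10412 genes tested. Of the channel genes 9 passed, 3 higher in ki (Kcnk1, Kcnab1 and Kcnab2) and 6 lower (Kcne4, Kcnj15, Kcnj2, Kcnn4, Kcnk13 and Kcnmb1). The background was 18% of all tested genes passing, 9.74% higher and 8.31% lower. Scaling arrays to their medians shifted the median gene to -0.217 and turned that split from 1014 higher and 865 lower genes to 401 and 1511. It gave 3 channel genes higher (Kcne1l in place of Kcnab2) and 7 lower (Kcnn1 added). Their adjusted p followed the size of the difference alone, not a gene's own spread. The genotypes did not overlap for 10 of the 21 channel genes, 4 with ki above and 6 with ki below, and for 38.4% of all tested genes, 20.3% above and 18.1% below. The median difference of the 21 was 0.10, beside 0.007 for all tested genes. The 21 include Kcnj2 and others that met the detection rule through 1 genotype, so these counts describe them and are not evidence about the family. In cultured bulk samples, fewer cells of a type and less RNA per cell cannot be told apart.

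**Figure D2:**
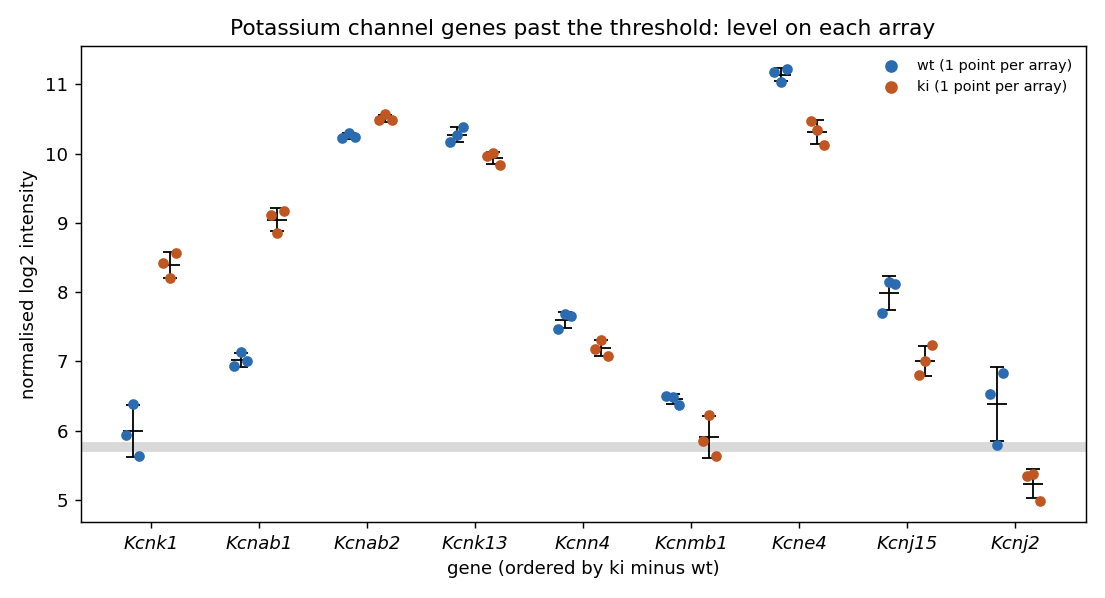
Normalised log2 intensity (vertical axis) of the 9 potassium channel genes past the threshold, 1 point per array with the mean and SD of the 3 arrays of each genotype. The grey band spans the lowest detected level of the 6 arrays, 5.70 to 5.82, and the ki arrays lie wholly above or below the wt arrays for each of the 9 genes.

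Kcnk1, Kcnab1, Kcne4 and Kcnj15 passed in every alternative setting in which they were measured. Their promoters are shown because these genes carry the differences that held best. The sequences are from RefSeq (GRCm38.p6), 250 bases before to 50 after the annotated start, 5′ to 3′ on the plus strand, at chr8:125994852-125995151, chr3:64948962-64949261, chr1:78816661-78816960 and chr16:95257308-95257607. All 9 genes that passed matched the table, with 13 starts. Kcnab1 has 3 starts there and the most upstream is shown, although the files do not say which start the probes read. Capitals mark any match, on either strand, to 5 motifs, whose matches do not overlap in the windows shown. These were the AP-1 site, searched as TGANTCA. The cAMP response element was searched as TGACGTCA. The site of TEAD factors was searched as GGAATG. The GC box was searched as GGGCGG. The TATA box was searched as TATAAA.
Kcnk1 promoter: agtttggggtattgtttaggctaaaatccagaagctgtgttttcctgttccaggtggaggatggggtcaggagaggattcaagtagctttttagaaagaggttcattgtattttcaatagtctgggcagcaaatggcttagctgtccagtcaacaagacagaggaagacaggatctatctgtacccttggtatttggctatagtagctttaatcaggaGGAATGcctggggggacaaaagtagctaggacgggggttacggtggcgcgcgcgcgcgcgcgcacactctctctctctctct
Kcnab1 promoter: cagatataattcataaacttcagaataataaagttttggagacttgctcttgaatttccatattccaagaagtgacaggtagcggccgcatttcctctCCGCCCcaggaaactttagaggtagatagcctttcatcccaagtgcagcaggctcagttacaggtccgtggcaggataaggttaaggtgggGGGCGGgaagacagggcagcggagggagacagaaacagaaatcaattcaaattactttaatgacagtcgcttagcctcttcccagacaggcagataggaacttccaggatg
Kcne4 promoter: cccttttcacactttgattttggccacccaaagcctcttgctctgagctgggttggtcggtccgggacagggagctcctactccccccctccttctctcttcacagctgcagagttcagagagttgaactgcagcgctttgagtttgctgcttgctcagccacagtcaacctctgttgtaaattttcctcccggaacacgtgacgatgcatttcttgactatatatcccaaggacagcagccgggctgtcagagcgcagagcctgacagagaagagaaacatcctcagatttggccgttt
Kcnj15 promoter: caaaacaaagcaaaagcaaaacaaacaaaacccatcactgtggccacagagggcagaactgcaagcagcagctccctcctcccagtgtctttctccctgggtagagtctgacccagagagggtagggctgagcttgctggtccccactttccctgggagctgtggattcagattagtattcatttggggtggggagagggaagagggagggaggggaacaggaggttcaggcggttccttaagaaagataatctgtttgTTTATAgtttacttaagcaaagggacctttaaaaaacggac
Kcnk1 held 1 TEAD match, whose first base lay at position -32 from the start, and Kcnab1 held 2 GC boxes, the first at -152. Kcnj15 held a TATA box match 9 bases after the start, and Kcne4 held none of the 5 motifs. Neither the AP-1 nor the cAMP response element letters occurred in any of the 13 windows. Among 32851 promoter windows of the same length, 7.81% held the AP-1 letters, 1.79% the cAMP response element, 14.7% the TEAD, 35.7% the GC box and 13.6% the TATA box letters. The matches describe letters in these windows and no binding was measured.

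Kcnk1 encodes a weakly conducting two-pore channel subunit of many epithelia. Its brightest probe stood at 5.94, 6.39 and 5.64 on wt arrays 1, 2 and 3, and at 8.42, 8.20 and 8.56 on ki arrays 1, 2 and 3. The ki arrays lay well above wt, where wt replicate 3 was not above background. The difference was 2.40 (SE 0.20, adjusted p = 0.000494), a fitted 5.29-fold rise whose size is uncertain because only 2 wt arrays measured it. The second Kcnk1 probe was detected on no wt array, at 5.36, 5.42 and 5.12, and on every ki array, at 7.14, 7.18 and 7.02. By that probe ki was at least 2.59-fold higher, taking the lowest detected level of each wt array as the bound. The probe met the detection rule through ki alone, so it is no separate support for the rise and no p-value is given. The deposited signal of the brightest probe was 50.91, 67.89 and 29.50 in wt and 332.19, 205.60 and 369.51 in ki, before any further normalisation.

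Kcnk6, of the same structural branch as Kcnk1, stood at 10.18, 10.17 and 10.01 in wt and 10.44, 10.31 and 10.29 in ki. The groups did not overlap, yet the difference of 0.22 (SE 0.082, 95% interval 0.03 to 0.42) missed the threshold (adjusted p = 0.115). Its second detected probe gave 0.40 (SE 0.085, adjusted p over single probes = 0.0248), so the 2 probes fell on either side of the threshold. Scaling to each array's median put the brightest probe at -0.017.

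Kcnk13, a two-pore channel inhibited by halothane, was lower in ki. Its levels were 10.17, 10.27 and 10.39 in wt and 9.96, 10.01 and 9.84 in ki. Every ki array lay below every wt array, by 0.35 on average (1.27-fold, SE 0.086, adjusted p = 0.035). The call was lost when any array but wt replicate 1 was left out, with adjusted p from 0.0488 to 0.0993 over the 6 omissions. Kcnk5, an alkaline-activated channel of epithelia, was detected on 1 wt and 3 ki arrays and differed by 0.43 (SE 0.18, adjusted p = 0.15). Of the other 10 two-pore genes, Kcnk2 and Kcnk9 were detected on 1 and 2 arrays and 8 on none.

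Among the accessory subunits, Kcnab1 and Kcnab2 rose and Kcne4 fell. Kcnab1 encodes a cytoplasmic beta subunit that speeds inactivation of voltage-gated channels of the Kcna family. It stood at 6.93, 7.13 and 7.01 on the wt arrays and 9.11, 8.86 and 9.17 on the ki arrays. All 6 arrays detected it, and the spread within a genotype was small beside the gap. The difference was 2.03 (4.08-fold, SE 0.10, adjusted p = 7.69e-05). A second Kcnab1 probe, at 6.70, 6.47 and 6.82 in wt and 8.32, 8.29 and 8.13 in ki, gave 1.58 (SE 0.11, adjusted p over single probes = 0.000399). The other 3 Kcnab1 probes were detected on at most 1 array, and which transcripts they read is not given in the sources used here.

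Kcnab2, the related beta subunit, stood at 10.23, 10.30 and 10.24 in wt and 10.48, 10.57 and 10.49 in ki. The arrays of each genotype agreed within 0.1, and the ki arrays lay above wt by 0.26 (1.20-fold, SE 0.066, adjusted p = 0.039). That call was lost whichever single array was left out (adjusted p 0.0766 to 0.113), and scaling to each array's median put the difference at 0.02.

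Kcne4 encodes a single-span subunit known to inhibit Kcnq1 and some Kcna channels. Its levels were 11.18, 11.03 and 11.22 in wt and 10.47, 10.34 and 10.13 in ki. The ki arrays were all lower, by 0.83 (1.78-fold, SE 0.11, adjusted p = 0.00276). The deposited signal was 2791.51, 2169.70 and 2421.40 in wt and 1406.62, 941.21 and 1116.54 in ki. Kcne1l, another single-span subunit, was detected on 1 wt and 3 ki arrays and differed by 0.55 (SE 0.20, 95% interval 0.06 to 1.03, adjusted p = 0.116). It passed without wt replicate 3 (adjusted p = 0.0351), the only wt array that detected it. It also passed with arrays scaled to their medians (adjusted p = 0.0483), where adjusted p followed the size of the difference alone. As the probe met the detection rule through ki, these p-values describe it and are not separate support for a rise. Of the other 9 accessory genes, Kcne1 was detected on 2 arrays and 8 on none, the 4 Kcnip genes included.

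**Figure D3:**
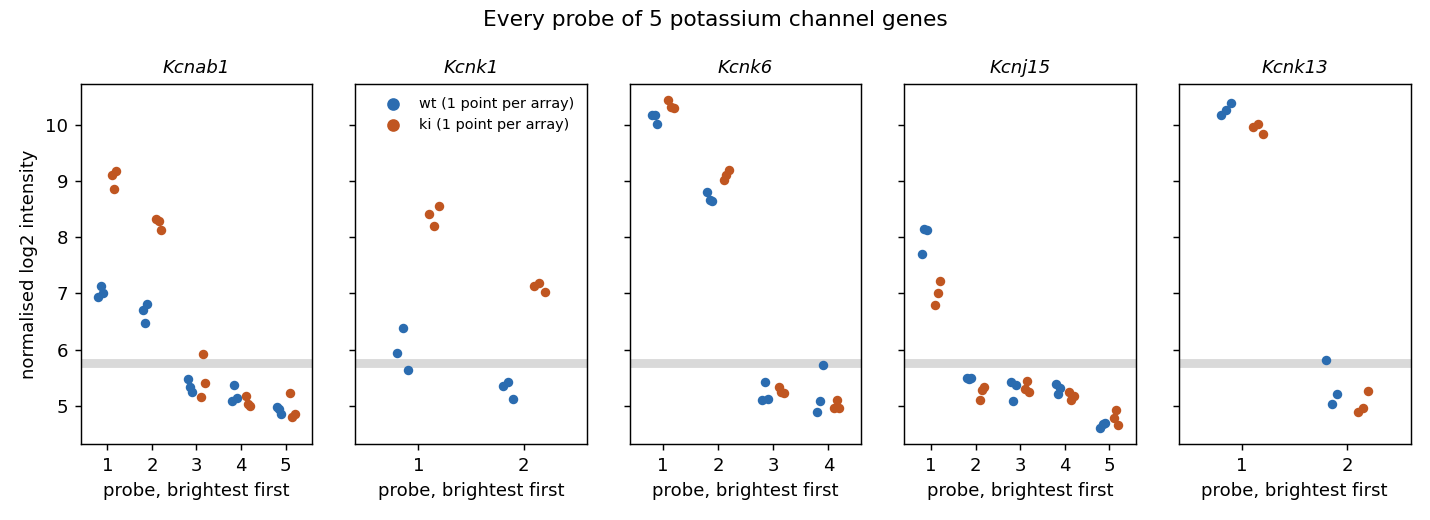
Normalised log2 intensity (vertical axis) of every probe of Kcnab1, Kcnk1, Kcnk6, Kcnj15 and Kcnk13, 1 point per array, with probes of a gene ordered from the brightest. The grey band spans the lowest detected level of the 6 arrays, 5.70 to 5.82. Above it the genotypes separate in 2 probes each of Kcnab1 and Kcnk6 and in 1 of Kcnj15 and of Kcnk13. They also separate in the 2 Kcnk1 probes, with ki above the band and wt replicate 3 or all wt arrays below it. Most other probes lie below the band.

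Most voltage-gated pore subunits, a group wider than the partners of these accessory proteins, were undetected. Of 35 voltage-gated pore genes, 5 were tested, 9 were detected on 1 or 2 arrays and 21 on none. In the Kcna family Kcna1, Kcna2, Kcna3, Kcna4 and Kcna7 were detected on no array, Kcna5 and Kcna6 on 1, and Kcna10 on all 6. None of the 5 tested genes passed in limma's test (0 also at an unadjusted p under 0.05), and the genotypes overlapped for each. Kcnh6, a channel of the ether-a-go-go-related branch, stood at 6.84, 6.64 and 7.34 in wt and 6.78, 7.0 and 7.19 in ki, a difference of 0.05 (95% interval -0.41 to 0.51, adjusted p = 0.89). Kcnh2, the main subunit of the rapid delayed rectifier current of heart, differed by 0.10 (-0.33 to 0.53, adjusted p = 0.749). Kcna10 differed by 0.14 (-0.24 to 0.52, adjusted p = 0.586). The signs of Kcnh6 and Kcnh2 turned when ki replicate 3 was left out (-0.051 and -0.09) and when arrays were scaled to their medians (-0.109 and -0.002). Kcnc4 (0.10, -0.22 to 0.41) and Kcnq1 (0.07, -0.46 to 0.60), the latter the pore subunit that Kcne proteins modulate, lay near background, detected on 5 and 3 arrays. These intervals do not show equal levels, and a change of 0.4 or more was not excluded for any of the 5.

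Of 13 inward rectifiers 3 were tested, and Kcnj15 and Kcnj2 fell. Kcnj15 encodes an inward rectifier described in kidney and pancreas. It stood at 7.70, 8.14 and 8.12 in wt and 6.80, 7.0 and 7.23 in ki. The highest ki array was below the lowest wt array, and the difference was -0.98 (1.97-fold lower, SE 0.16, adjusted p = 0.00673). The other 4 Kcnj15 probes were detected on no array, so the call rests on 1 probe.

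Kcnj2 encodes a strong inward rectifier that holds the resting potential in muscle and other cells. Its single probe stood at 6.53, 5.79 and 6.83 in wt and 5.34, 5.37 and 4.99 in ki. It was detected on every wt array and on no ki array, with wt replicate 2 just above background at a deposited signal of 36.62. The level in ki was at least 1.54-fold lower against the lowest detected level of the ki arrays (adjusted p = 0.0258). As the probe met the detection rule through wt alone, this p-value describes it and is not separate support for the fall. The call was lost without wt replicates 1 or 3 or any ki array, with adjusted p from 0.00491 to 0.0882 over the 6 omissions. Kcnj3, a G protein-gated subunit, differed by -0.26 (SE 0.11, 95% interval -0.53 to 0.01, adjusted p = 0.17). Kcnj8, which forms ATP-sensitive channels in vascular and mural cells, was detected on 1 wt array, and its partner Abcc9 differed by -0.02 (SE 0.14, adjusted p = 0.932).

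Among the calcium-activated and related channels and their beta subunits 4 of 11 were tested, and Kcnn4 and Kcnmb1 were lower. The group was set by symbol and includes the related Kcnt1, Kcnt2 and Kcnu1, which were detected on no array. Kcnn4 encodes the intermediate-conductance channel known for roles in proliferation of fibroblasts and in immune cells. It stood at 7.47, 7.68 and 7.66 in wt and 7.18, 7.31 and 7.08 in ki. The groups did not overlap, with a difference of -0.41 (1.33-fold lower, SE 0.095, adjusted p = 0.0264). It missed the threshold without wt replicates 2 or 3 or ki replicates 1 or 3 (adjusted p 0.0304 to 0.0884 over the 6 omissions). Kcnmb1, the beta subunit of large-conductance channels in smooth muscle, stood at 6.50, 6.49 and 6.37 in wt and 5.85, 6.23 and 5.64 in ki. Its difference of -0.55 (SE 0.15, adjusted p = 0.0469) lay at the threshold, and ki replicate 3 did not detect it. It was kept without ki replicate 2 and lost without each of the other arrays (adjusted p 0.0094 to 0.13). The pore gene of the same channel, Kcnma1, was detected on no array by any of its 3 probes.

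Neither small-conductance channel tested, Kcnn1 or Kcnn3, passed. Kcnn1 stood at 6.50, 6.74 and 6.57 in wt and 6.10, 5.92 and 6.51 in ki, overlapping in ki replicate 3. Its difference was -0.42 (SE 0.16, adjusted p = 0.113), and it passed without that array (adjusted p = 0.0211). It also passed with arrays scaled to their medians (adjusted p = 0.0262). There adjusted p followed the size of the difference alone and did not weigh this overlap. Kcnn3 was detected on 1 wt and 2 ki arrays and differed by 0.35 (SE 0.33, adjusted p = 0.504), with the ki arrays from 5.47 to 6.66. The other member tested was noncoding. Kcnq1ot1, the antisense RNA of the imprinted Kcnq1 domain, differed by 0.37 (SE 0.21, 95% interval -0.14 to 0.87, adjusted p = 0.286).

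**Figure D4:**
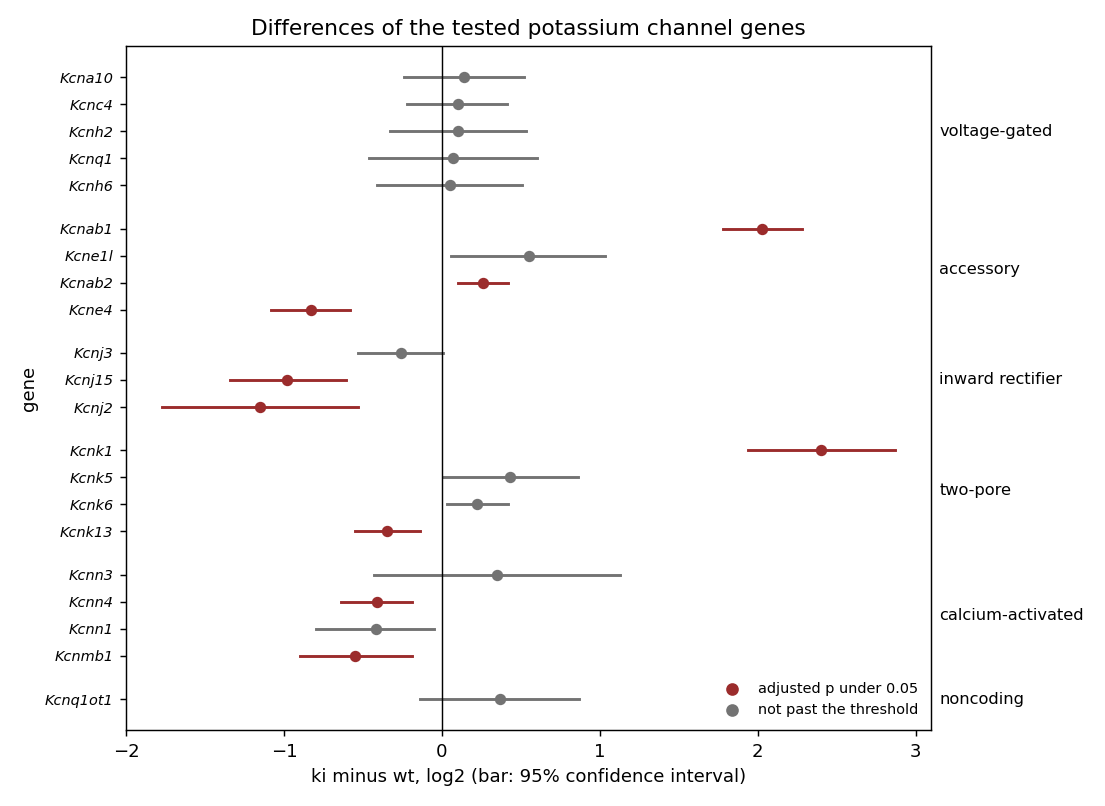
Difference ki minus wt on the log2 scale (horizontal axis) with its 95% confidence interval for the 21 tested potassium channel genes, grouped by channel type. Kcnk1 and Kcnab1 stand at 2.40 and 2.03, the other genes lie between -1.15 and 0.55 (the fitted value of Kcnj2, undetected in ki, is -1.15), and the 5 voltage-gated genes have intervals that include 0.

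Of the tested genes that move potassium by other routes or regulate that movement, 6 of 29 (20.7%) passed, 3 higher and 3 lower, beside 18% of all tested genes. Among sodium pump subunits and their FXYD regulators 13 of 17 were matched on the array and 7 tested. Atp1b1, the beta subunit that carries the pump to the membrane, rose by 1.73 (SE 0.16, adjusted p = 0.000771) from 7.31 to 9.04. Atp1b2, an isoform of glia and other cells, was lower in ki (adjusted p = 0.0469), at 6.58, 6.17 and 6.24 in wt and 5.69, 5.95 and 5.29 in ki. It was detected on 3 wt arrays and 1 ki array, so it met the detection rule through wt and no size is given. Among other potassium-permeable channels 1 of 6 passed, Tmem38b, a counter-ion channel of the endoplasmic reticulum, which was lower by 0.35 (SE 0.065, adjusted p = 0.0119). Of the channel partners 2 of 9 and of the cation-chloride cotransporters 5 of 7 were tested, and 0 passed in limma's test (0 and 1 at an unadjusted p under 0.05). Of 9 tested regulators 2 rose and 1 fell. Akap5, which anchors kinases at channels, rose by 2.40 (SE 0.074, adjusted p = 1.53e-05), and Stk39, a kinase of the cotransporters, by 0.51 (adjusted p = 0.0323). Sgk1, a kinase that raises the surface level of several channels, fell by 0.96 (SE 0.082, adjusted p = 0.000589). The median differences were -0.11 for the other channels, -0.01 for the pump list and 0.02 for the regulators, beside 0.007 for all tested genes.

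Markers of other cell types moved on the same arrays. The counts below stand beside 18% of all tested genes passing, 9.74% higher and 8.31% lower. Of 12 mesothelial markers listed, Wt1 and Muc16 were not matched on the array. The summed intensity of the other 10, the keratins Krt8, Krt18 and Krt19 included, was 1573 to 1812 in wt and 10591 to 11329 in ki. All 9 of 9 tested were higher, and Krt19, Gpm6a and Rspo1 were on no wt array. The summed intensity of 14 epithelial markers was 1876 to 2006 and 5969 to 6133 (5 of 8 tested higher). Epcam, Sftpa1, Sftpb, Sftpc and Foxj1 were on no array. Cldn7, also epithelial, was detected on 2 wt arrays and no ki array and was not tested. The mesothelial and epithelial sums moved with Kcnk1, Kcnab1 and Kcnab2, and the part of these cell types in those rises was not tested. Neutrophil markers fell, 7 of 7, from 12547 to 13311 in wt to 2891 to 3299 in ki, with Mpo, Ctsg and Ngp on no ki array. Those genes met the detection rule through wt alone, and Krt19 and Gpm6a through ki alone. Their calls describe them and are not separate support for a shift. Macrophage markers were bright on every array, 142171 to 145265 in wt and 130248 to 138804 in ki, with 3 of 9 lower and 1 higher. Smooth muscle and pericyte markers summed to 11418 to 12072 and 8247 to 9586 (2 higher and 2 lower of 6), and Rgs5 was on no array. Endothelial markers summed to 2298 to 2463 and 1917 to 2096, with 0 of 6 past the threshold (4 at an unadjusted p under 0.05). All 8 fibroblast markers were detected on every array, and 4 of 8 were lower (97786 to 103449 in ki, 112790 to 123217 in wt), and the 4 neural markers matched were on no array. The part of these cell types in the differences of the 6 lower channel genes was not tested.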

How the data were processed

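RNA of 3 wt and 3 ki fibroblast cultures, each from a different mouse, was labelled with biotin and hybridised to Illumina bead arrays, per the labels. The deposited intensity values were background-subtracted and not normalised between arrays (28.59% to 32.02% negative per array). The authors deposited detection p-values, 1 per probe and array as the file headers show, and a second table of normalised intensities, equal to the series values in 100% of cells. The sources used here do not give the scanner, background and normalisation methods. No array date or slide is named.

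Background correction in limma 3.58.1 under R 4.3.3 (normexp, controls inferred from detection p-values, offset 16) was followed by quantile normalisation and log2. A symbol was taken from the platform annotation and updated by gene identifier (34885 probes with 1 symbol, 18 with several and 10378 with none, the last 2 kinds left out). A probe was tested if 3 or more of the 6 arrays had a detection p under 0.05, and the brightest such probe stood for a gene. lmFit and eBayes compared ki with wt over 10412 genes (4 residual degrees of freedom), with Benjamini-Hochberg adjustment. Further probes were fitted over all 15771 tested probes with 1 symbol. The noncoding Kcnq1ot1 and Kcnmb4os1 meet the Kcn rule and were kept apart from the channel groups. Named genes were those past the threshold, those detected on all arrays of 1 genotype and none of the other, and up to 3 further members per channel group with the highest mean level. Kcnc4, Kcnq1, Kcnj8, Kcnma1 and the undetected genes were named after their values were seen. Members, lists and tests were chosen with earlier results of these data known. On simulated data (5 runs, 10412 genes, 200 changed per run) the fit found 45.4% of changes of 0.5 and 80.6% of changes of 1. Of its calls 4.26% were unchanged genes. A larger share of genes passed in the measured data, so these percentages need not hold there. Precision is limited by the number of arrays, with a median residual SD of 0.119, and the smallest difference that passed was 0.226. Figures used matplotlib 3.10.9 in Python 3.11.15.

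Alternatives were the deposited signals without further correction, median scaling, the intensities normalised by the authors, the series value table, an offset of 50, all probes whether detected or not, a detection p under 0.01 on all 6 arrays, a gene's probes averaged or tested singly, a trended robust eBayes, weighted arrays, a replicate block, each array left out, and thresholds of 0.01 and 0.1. Median scaling over detected probes, leaving out wt replicate 1 with ki replicate 2, and a spread shared over all 18249 tested probes were chosen after seeing the data.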

Additional observations from a re-analysis of the deposited data

How the results depend on the processing

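Kcnab1, Kcne4 and Kcnj15 passed in 21 of 21 alternatives and Kcnk1 in the 20 that tested it, with differences of 1.78 to 2.12, -1.08 to -0.74, -1.16 to -0.82 and 1.92 to 2.61. The other calls were less stable: Kcnn4 passed in 16 of 21, Kcnk13 in 13 of 21, Kcnj2 in 12 of 20, Kcnab2 in 8 of 21 and Kcnmb1 in 7 of 20. These tallies count the authors' intensities and the identical series value table separately. They leave out the thresholds of 0.01 and 0.1. With 1 array left out, 2 or 3 channel genes were higher and 2 to 4 lower (2 without wt replicate 3 or ki replicate 1, 3 without wt replicate 2 or ki replicate 3, 4 without wt replicate 1 or ki replicate 2), and over all genes 690 to 788 were higher and 531 to 682 lower, in place of 1014 and 865. Without both wt replicate 1 and ki replicate 2, chosen after seeing the data, 495 and 378 genes passed, with 2 channel genes higher and 4 lower. At an adjusted p under 0.01 the counts were 479 and 373, with 2 channel genes lower. Scaling to each array's median moved the median gene to -0.217 and gave 401 genes higher and 1511 lower. It called 3 channel genes higher, with Kcne1l (adjusted p = 0.0483) in place of Kcnab2 (0.018, adjusted p = 0.954), and 7 lower, with Kcnn1 added (adjusted p = 0.0262). Under this scaling the adjusted p of the named genes ranked by the size of the difference, whatever their spread between arrays. A pass under it therefore does not weigh a gene's own spread. Detection at p under 0.01 kept 8 channel genes on all 6 arrays and 13 on at least 3, in place of 21. Sign changes, none in a gene that had passed, were those of Kcnh2 (-0.002), Kcnh6 (-0.109) and Kcnk6 (-0.017) under median scaling, of Kcnh6 without wt replicate 1 (-0.003), wt replicate 2 (-0.1) or ki replicate 3 (-0.051), of Kcnh2 without ki replicate 3 (-0.09), and of Kcna10 (-0.061) and Kcnh6 (-0.009) without wt replicate 1 and ki replicate 2. Deviations of same-numbered wt and ki cultures correlated at 0.02, 0.024 and 0.088 across genes, and those of differently numbered cultures at -0.092 to 0.073. All were small and do not settle whether the numbers mark pairs. The main test did not take the labels' numbers as pairs. With the replicate block 3 channel genes were higher and 4 lower, and 807 and 703 of all genes. Kcnk5, which met the detection rule through ki, was gained (adjusted p = 0.0283), and Kcnab2 (0.071), Kcnj2 (0.0604) and Kcnk13 (0.0825) were lost. With 1 array left out Kcna10 reached 0.308, Kcnh2 0.211 and Kcnh6 0.248 at most. The cause of these changes was not tested. Probes near background, as for Kcnj2, Kcnmb1 and the wt arrays of Kcnk1, limit the size that can be given.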
